A study of Mus musculus with 5 samples.

Results

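The genes described here encode the proteins of the cytosolic ribosome. They were chosen by name: every gene whose symbol in the platform annotation begins with Rpl (large subunit) or Rps (small subunit) followed by a digit, without the Rps6k kinases, with a probe set that carries exactly 1 symbol. Where a gene had several such probe sets, the one with the highest mean was read. This gave 48 genes, 24 of each name, of 18193 genes with such a probe set. Of the 48, 40 are named as core ribosomal proteins, 5 are paralogues (Rpl3l, Rpl7l1, Rpl22l1, Rpl39l and Rps27l) and 2 are annotated as transcribed pseudogenes (Rps4l and Rps15a-ps6). Rps19bp1 matches the rule by its name only, since it encodes a binding partner of a ribosomal protein. A further 109 probe sets list a ribosomal protein symbol together with other symbols, mostly pseudogenes, and were assigned to no gene.

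A ribosome is built from ribosomal RNA and a near-equal number of copies of each ribosomal protein, so the genes for these proteins are transcribed together in all tissues and are among the most abundant messenger RNAs of any cell. Most of these messengers begin with a cytosine followed by a run of pyrimidines, the terminal oligopyrimidine (TOP) motif, through which the growth kinase mTOR controls their translation. Ribosome assembly takes place in the nucleolus and is raised by the transcription factor Myc in dividing cells. In blood formation, loss of 1 copy of certain ribosomal protein genes causes Diamond-Blackfan anaemia.

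Total RNA came from bone marrow cells of FVB mice at 4 weeks of age that were enriched with magnetic beads against B220, a surface form of CD45 on developing B cells. Of the 5 Affymetrix arrays, 3 were labelled as homozygous kinase-dead knock-in mice (IKKαK44A/K44A, below KA/KA) and 2 as wild-type littermates (WT). IKKα, a kinase, acts upstream of NF-κB, and the series asks what its activity does in early B cell formation. Whether RNA of 1 animal or of several went onto each array is not stated, so p-values cover only the spread from array to array.

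The arrays did not all show the labelled cell type. Of 10 B-lineage markers 9 were measured, and their summed signal was 54614 on the array KA/KA 1 and 63534 on WT 1 but 1991 to 4329 on KA/KA 2, KA/KA 3 and WT 2. On the latter the recombinase gene Rag1 stood at background, at 4.09 to 4.10 on the log2 scale. Of 12 lung epithelial markers 11 were measured, and their sum was 3878 and 3967 against 140935 to 215641. Median log2 signals of the 24 bacterial poly-A control probe sets, which carry no mouse RNA, were 12.84 or more on KA/KA 1 and WT 1 and 8.05 or less on the others. The arrays KA/KA 1 and WT 1 are called the marrow-like pair and the other 3 the lung-like arrays. These sets come from the data and are not groups of the study. Array 99th percentiles ran from 8746 on WT 2 to 12621 on WT 1, at array medians of 95.7 to 128.

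Signals are given as log2(signal + 16), which understates changes of dim genes. Of the 48 genes, 44 passed the filter on low values (a mean in the upper part of all probe sets, log2 7.04 or more), 22 of each name. These counts go by name and include the paralogues, the pseudogene Rps4l and Rps19bp1. The 4 below it were Rpl3l, Rpl39l, Rps15a-ps6 and Rps16. Of the 44, 32 had a mean of 13 or more and the other 12 a mean between 7.36 and 12.97. This border was chosen after the values were seen. A level here belongs to a probe set and cannot be compared between genes. All 8 core genes under 13 have a brighter probe set of mean 13 or more that lists their symbol among several, so their values describe 1 dim probe set and not the whole transcript output of the gene.

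Few ribosomal protein genes, each read by its probe set of highest mean, were called between marrow-like and lung-like arrays. Of the 44 tested, 42 had a lower estimate on the lung-like arrays, with a median difference of -0.28 log2 units against 0.04 over all 11392 genes. Only 4 were lower past the threshold and 1 higher (limma, array set and genotype in 1 model, adjusted p under 0.05). Across all genes 14.2% were called lower and 21.5% higher, and the 4 lower and 1 higher of 44 do not exceed those shares. The called genes were Rpl27a, Rpl14, Rps6 and Rpl7l1 (lower) and Rps4l (higher). All 5 lay among the genes of mean under 13. The values did not overlap between the sets for 9 lower genes and 1 higher gene, against 30.5% and 35.4% of all genes.

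**Figure D1:**
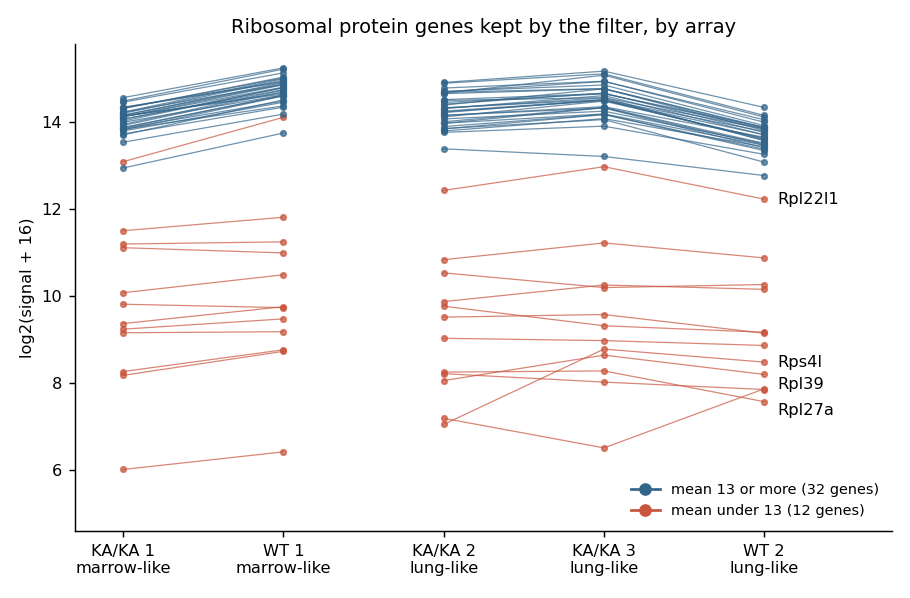
Log2(signal + 16) of the 44 ribosomal protein genes kept by the filter, 1 line a gene, on the marrow-like pair (left) and the lung-like arrays (right). The 32 genes of mean 13 or more (blue) move as 1 band that is highest or nearly so on WT 1 and lowest on WT 2, while the 12 others (red) spread.

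Start sites were read as a property that the selection by name did not use. RefSeq promoters (GRCm38.p6, 250 bases before to 50 after a start) were found for 41 of the 48 genes, with 49 starts. A TOP-like start, a cytosine at the annotated start followed by at least 4 pyrimidines, was present at 7 of 49 (14.3%), against 2.51% of 32851 starts of all genes. The ETS motif CCGGAAG, or its reverse complement, occurred in 19 of 49 windows (38.8%) against 8.86% of all. AAGATGG, a YY1 motif, occurred on either strand in 16.3% against 6.34%, and TATAAA in 10.2% against 13.6%. A match describes the letters and not a bound site, and annotated starts can be some bases off. The TOP-like starts are shown because this motif is the textbook mark of the family. Each window runs from 10 bases before to 20 after the start, with the pyrimidine tract in capitals:
Rpl14, chr9:120571507-120571536, plus strand: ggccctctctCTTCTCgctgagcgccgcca
Rpl35, chr2:39005112-39005141, minus strand: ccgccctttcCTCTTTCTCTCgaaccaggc
Rpl38, chr11:114668570-114668599, plus strand: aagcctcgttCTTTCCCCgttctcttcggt
Rps6, chr4:86857348-86857377, minus strand: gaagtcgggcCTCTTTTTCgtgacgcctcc
Rps10, chr17:27635225-27635254, minus strand: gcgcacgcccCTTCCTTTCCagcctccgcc
Rps18, chr17:33955646-33955675, minus strand: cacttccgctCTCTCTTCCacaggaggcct
Rps27, chr3:90213629-90213658, minus strand: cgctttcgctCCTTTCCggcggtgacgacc

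Between the array sets the 7 genes with these starts had both called and uncalled differences, and they were not tested against the rest. Rpl14 and Rps6 were called lower on the lung-like arrays, while Rpl38 (0.02), Rps10 (-0.07), Rps27 (-0.13), Rps18 (-0.42) and Rpl35 (-0.60) were not. Rpl22l1 and Rpl22 have no TOP-like start in this annotation.

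The 32 genes of mean 13 or more behaved as a block. Their differences between the sets ran from -0.60 (Rpl11) to 0.02 (Rpl38), with SE of 0.40 to 0.51 and adjusted p of 0.317 to 0.992 (limma), and 0 were called. Their SD over the lung-like arrays was 0.32 to 0.52, larger than most of these differences. The arrays themselves were ordered alike for nearly all of them. All 32 were lowest on WT 2, where 22.2% of all genes had their lowest value, and 27 were highest on WT 1, where 21.7% of all genes did.

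Large subunit genes of this block included Rpl11 and Rpl38. Rpl11, which binds Mdm2 when ribosome assembly fails and is mutated in Diamond-Blackfan anaemia, read 13.87 and 14.62 on the arrays KA/KA 1 and WT 1. On KA/KA 2, KA/KA 3 and WT 2 it read 13.77, 13.91 and 13.26. KA/KA 3 lay just above KA/KA 1, so the sets overlapped (-0.60 ± 0.43, estimate ± SE, adjusted p = 0.317 by limma). Rpl38, needed for translation of a subset of Hox messengers in the embryo, read 14.32 and 15.04 on the marrow-like pair and 14.90, 15.11 and 14.16 on the lung-like arrays. Its set difference of 0.02 ± 0.51 was far inside the spread. Rpl13a, which also silences inflammatory messengers outside the ribosome, read 14.49 and 15.22 against 14.71, 14.86 and 13.92. WT 2 was again the lowest array and WT 1 the highest. By set means this probe set of Rpl13a differed by -0.36, while its other probe sets differed by -2.33, -1.37 and -0.09.

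Of the 5 genes of this block that were not highest on WT 1, Rps10, Rps14, Rps2 and Rps28 are of the small subunit and Rpl38 is of the large. All 5 were highest on KA/KA 3. Among small subunit genes, Rps19, the gene most often mutated in Diamond-Blackfan anaemia, read 13.83 and 14.61 on KA/KA 1 and WT 1 and 14.01, 14.34 and 13.52 on KA/KA 2, KA/KA 3 and WT 2. Rps26, another gene of that disease, read 13.54 and 14.19 against 13.86, 14.06 and 13.08. For both genes the values of the sets overlapped, with differences of -0.27 ± 0.46 and -0.24 ± 0.45. Rps3, which besides its ribosomal role can bind the NF-κB subunit p65, read 13.71 and 14.52 against 13.90, 14.18 and 13.38 (-0.30 ± 0.45). Rps24, mutated in the same anaemia, read 14.21 and 14.97 against 14.42, 14.67 and 13.77 (-0.32 ± 0.49). Its probe sets disagreed: a dim one, not shared with other transcripts, read 8.25 and 8.28 on the marrow-like pair and 9.62, 9.96 and 10.19 on the lung-like arrays. Taken in its place, that probe set was called higher on the lung-like arrays (1.70, adjusted p = 0.00588 by limma).

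**Figure D2:**
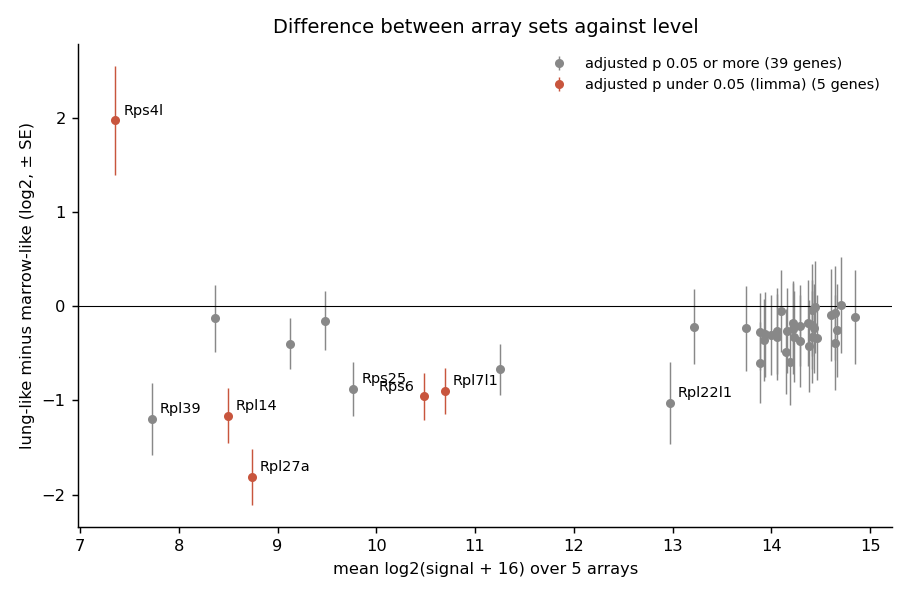
Difference between array sets (lung-like minus marrow-like, log2, with SE bars from limma) against the mean log2(signal + 16) of each of the 44 genes. The 5 genes past an adjusted p of 0.05 (red) all have a mean under 13, and the genes of mean 13 or more lie between -0.60 and 0.02.

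Among the genes of mean under 13 the lower values were clearest for Rpl27a, a large subunit protein. Its probe set read 9.82 and 9.74 on KA/KA 1 and WT 1 and 8.26, 8.29 and 7.58 on KA/KA 2, KA/KA 3 and WT 2. Both marrow-like arrays lay above all lung-like ones, by -1.81 ± 0.30 log2 units or 3.50-fold (adjusted p = 0.0065, limma). Rpl14, also of the large subunit, read 9.16 and 9.19 against 8.22, 8.03 and 7.86 (-1.16 ± 0.29, adjusted p = 0.0267 in the same limma fit). Rps6, the substrate of S6 kinase and the usual readout of mTOR activity, read 11.12 and 11.00 against 9.88, 10.26 and 10.16. It was lower by -0.96 ± 0.25 (adjusted p = 0.0305, limma) with no overlap. Rpl39, a short protein that lines the exit tunnel of the ribosome, read 8.27 and 8.77 against 7.20, 6.52 and 7.88. Its difference of -1.19 ± 0.38 missed the threshold (adjusted p = 0.0562, limma), though the sets did not overlap. Rps25, a small subunit protein used in viral internal initiation, read 10.08 and 10.50 against 9.52, 9.58 and 9.15, also without overlap and short of the threshold (-0.88 ± 0.29, adjusted p = 0.060, limma).

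Of the paralogues, 1 passed the threshold. Rpl7l1, a relative of Rpl7 with a role in ribosome assembly, read 11.20 and 11.25 on the marrow-like pair and 10.54, 10.20 and 10.27 on the lung-like arrays, and was lower there (-0.90 ± 0.24, adjusted p = 0.0342, limma). Rpl22l1, which can replace Rpl22, read 13.10 and 14.12 against 12.44, 12.98 and 12.23. The sets did not overlap, but the difference of -1.03 ± 0.44 did not pass (adjusted p = 0.119, limma). Rpl22 itself read 14.13 and 14.86 against 14.32, 14.56 and 13.58 (-0.37 ± 0.49). Its other probe sets differed by -1.35 and 0.42 between the set means. Rps27l, a p53 target, read 12.95 and 13.76 against 13.39, 13.22 and 12.78 (-0.22 ± 0.40). Rps27 read 8.19 and 8.74 against 8.07, 8.65 and 8.21, a difference of -0.13 ± 0.36 with overlapping sets.

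Of the dimmer paralogues, Rpl39l, a testis-enriched form of Rpl39, read 6.63 and 8.14 on KA/KA 1 and WT 1 and 6.09, 6.57 and 5.66 on KA/KA 2, KA/KA 3 and WT 2. It lay below the filter and was not tested. Rpl3l, the form of Rpl3 found in heart and skeletal muscle, stood at 4.82 and 5.84 against 5.96, 5.51 and 5.83, also below the filter. Rps16, a core small subunit gene, is represented here by a probe set near the lowest signals of the array, at 4.76 and 4.34 against 4.09, 4.09 and 4.10. The pseudogene Rps15a-ps6 read 6.49 and 6.61 against 5.70, 5.69 and 5.58 and was not tested either. Rps19bp1, which is no ribosomal protein, read 9.38 and 9.76 against 9.77, 9.33 and 9.18 with overlapping sets (-0.15 ± 0.31).

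Rps4l was the 1 gene called higher on the lung-like arrays. It is a relative of Rps4x that the current annotation lists as a transcribed pseudogene. It read 6.02 and 6.43 on KA/KA 1 and WT 1 and 7.06, 8.79 and 8.49 on KA/KA 2, KA/KA 3 and WT 2, without overlap (1.97 ± 0.58, 3.92-fold, adjusted p = 0.0435, limma). The lowest of the lung-like values was that of KA/KA 2. The 7 heart muscle markers had medians of 6.01 on that array, 10.20 on KA/KA 3, 13.07 on WT 2 and 5.36 and 5.08 on the marrow-like pair. Their summed signal was 1306, 10270 and 54994 on the lung-like arrays, and the 5443 and 6884 of the marrow-like pair came mostly from Myl4 (12.36 and 12.71 on the log2 scale). KA/KA 2 had the highest summed signal of the 6 keratinocyte markers (44016, against 232 to 379 elsewhere). The part of these cells in the result was not tested. Rps4x read 14.23 and 14.88 against 14.40, 14.77 and 13.87 (-0.23 ± 0.47).

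These calls rest on few arrays. Leaving out an array can change the calls over all genes as well, and no share of all genes stands beside the counts with 1 array left out. Without WT 1, or without WT 2, 0 of the 44 genes passed in either direction, and the median turned to 0.30. Without KA/KA 1, 4 were called lower and 0 higher at a median of -1.02, and without KA/KA 3, 1 was lower and 0 higher. Without KA/KA 2, 6 were lower and 1 higher. Of the called genes Rpl7l1 also missed the threshold with no intensity trend (adjusted p = 0.0517) and with the mean of its probe sets (-0.71, adjusted p = 0.0718, both limma). With the arrays centred on their medians, 8 of the 44 genes were lower and 0 higher, beside 2782 lower and 1950 higher of all 11392 genes. That scaling moved all genes to a median of -0.30 and the share of called genes that were higher from 60.2% to 41.2%. Relative to the median of all genes, the ribosomal protein genes stood at -0.33, a value that median centring cannot change since it shifts all genes of an array alike, and at -0.21 after quantile normalisation.

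Genotype was then compared inside each set. In the marrow-like pair, 42 of 44 ribosomal protein genes were lower on KA/KA 1 than on WT 1, against 43.2% of all genes, with a median difference of -0.67 log2 units (0.08 over all genes). With 1 array against 1 there is no test. On the lung-like arrays the sign was the opposite: 38 of 44 were higher on both KA/KA 2 and KA/KA 3 than on WT 2, against 33.4% of all genes. The medians there were 0.55 and 0.79, against -0.04 and -0.01 over all genes. The exceptions in the pair were Rpl27a and Rps6. In all, 37 of 44 genes were lower in KA/KA in the pair and higher on both lung-like KA/KA arrays, against 17.4% of all genes. Genes with the reverse pair of signs are not in these counts.

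**Figure D3:**
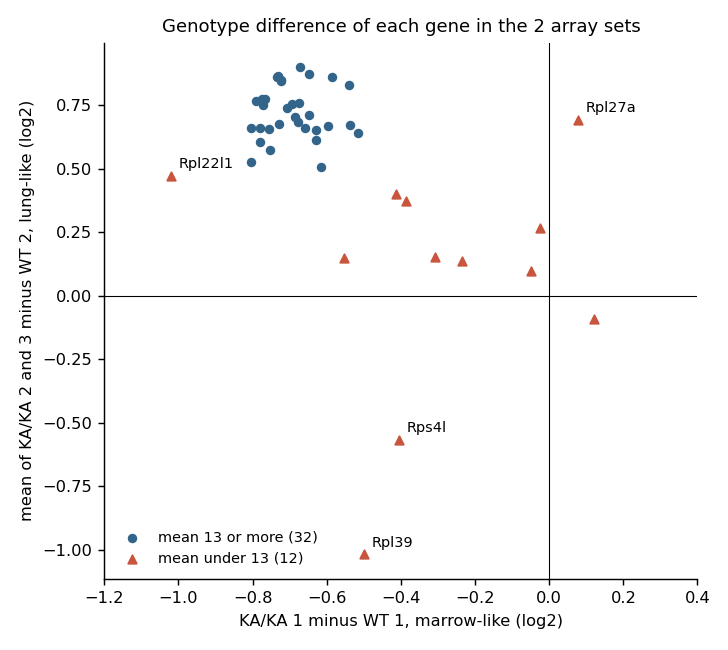
KA/KA minus WT (log2) of each of the 44 genes in the marrow-like pair (x) and, as the mean of both KA/KA arrays against WT 2, on the lung-like arrays (y). The 32 genes of mean 13 or more form 1 cloud with negative x and positive y; Rpl39 and Rps4l lie below 0 on both axes.

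None of these genotype differences passed a test. Fitted over both sets with the array set in the model, 0 of 44 genes were called, as were 0% of all genes in either direction (limma). At an unadjusted p under 0.05 there were 0 of the 44 and 311 of all genes. Estimates ran from -0.80 (Rpl39) to 0.43 (Rpl27a) with SE of 0.24 to 0.58. On the lung-like arrays alone 0 of 44 were called (0% of all genes), with 20 at an unadjusted p under 0.05, all higher in KA/KA, against 782 of all 11392 genes (564 higher and 218 lower). Apart from the limma prior drawn from all genes (median of 3.02 degrees of freedom beside 1 residual), the spread there comes from KA/KA 2 and KA/KA 3 alone. WT 2 is assumed to vary like them. The interaction of genotype and array set also gave 0 calls (0% of all genes; smallest adjusted p of the 44 genes 0.754, limma), with 33 of 44, and 658 of all 11392 genes, at an unadjusted p under 0.05. Here too, apart from the prior, the spread comes from KA/KA 2 and KA/KA 3 alone, since each other combination of genotype and set is 1 array.

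KA/KA minus WT on the log2 scale is given here for single genes, first for the marrow-like pair and then for KA/KA 2 and KA/KA 3. Rps3 differed by -0.81 in the marrow-like pair and by 0.52 and 0.80 on the lung-like arrays KA/KA 2 and KA/KA 3, and its estimate over both sets was 0.03 ± 0.45. Rps26 (-0.65, then 0.77 and 0.98) and Rps28 (-0.59, then 0.79 and 0.94) did the same, as did Rpl10a (-0.54, then 0.75 and 0.92). All 32 genes of mean 13 or more had these signs. The 32 spanned -0.81 to -0.52 in the pair, 0.36 to 0.85 for KA/KA 2 and 0.44 to 0.98 for KA/KA 3.

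Some dim genes stood apart from this block. Rpl39 was lower in KA/KA in both sets (-0.50 in the pair, -0.68 and -1.36 on the lung-like arrays; -0.80 ± 0.38 over both, unadjusted p = 0.083 and adjusted p = 0.999 by limma). Rpl27a was higher in KA/KA in both (0.08, then 0.68 and 0.71; 0.43 ± 0.30). Rps4l differed by -0.40 in the pair but by -1.43 and 0.30 on the lung-like arrays. Rpl22l1 had the pattern of the block (-1.02, then 0.20 and 0.75), and Rpl37 (-0.31, then -0.04 and 0.35) and Rpl14 (-0.02, then 0.36 and 0.17) had smaller differences. Rps27 read -0.55, then -0.14 and 0.44.

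The opposite signs were shared with other bright genes and their size depended on the scaling of the arrays. Of 205 other genes with a mean of 13 or more, 76.1% had the same opposite signs, with medians of -0.40 in the pair and 0.46 and 0.50 on the lung-like arrays. Of 11143 other genes under 13, 16.1% did. The 99th percentile of the array was higher on WT 1 (12621) than on KA/KA 1 (9870) and lower on WT 2 (8746) than on KA/KA 2 (11611) and KA/KA 3 (11072). The 32 genes had the same sign as the percentile in each of these comparisons. Their medians against WT 2 were 0.59 for KA/KA 2 and 0.86 for KA/KA 3, at percentiles of 11611 and 11072. Of all 44 genes tested, 38 were higher on KA/KA 3 than on KA/KA 2, a count that was not made over all genes. The other genes with a mean of 13 or more also had the higher median for KA/KA 3 (0.50, against 0.46 for KA/KA 2). The part of array scaling in these signs was not tested. With means of 13.22 to 14.85, the 32 genes lie near or above the log2 99th percentiles of 13.10 to 13.63 and help to set them. Quantile normalisation gives all arrays the same distribution, so a difference shared by the brightest genes must shrink, whatever its source. After it the medians of the 32 genes were -0.064, -0.056 and 0.075, and 7 of 32 kept the opposite signs. With the 99th percentiles made equal they were -0.35, 0.18 and 0.52, and 31 of 32 kept the opposite signs. With median centring 32 of 32 did.

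**Figure D4:**
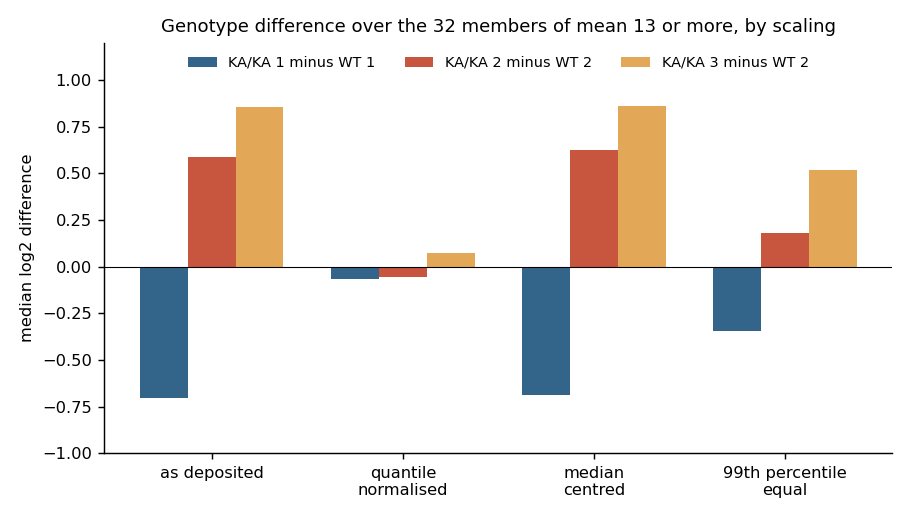
Median KA/KA minus WT (log2) over the 32 genes of mean 13 or more, for the marrow-like pair and for each KA/KA array against WT 2, under 4 scalings. The bars of -0.70, 0.59 and 0.86 with the deposited scaling shrink to -0.064, -0.056 and 0.075 after quantile normalisation. That scaling makes the brightest values of all arrays equal, so some shrinkage is built in.

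Between the array sets (lung-like minus marrow-like), other genes of translation were read as well. Of 8 further symbols for proteins of the ribosome and its stalk (Gnb2l1 and Rack1 name 1 gene) 4 were tested, and none was called between the sets (median -0.14). The stalk protein Rplp0 read 14.20 and 14.83 against 14.73, 14.78 and 13.90, the order of arrays seen for the block. Elongation factors and other TOP messengers gave 0 calls of 18 tested (median -0.55). Beside both lists, 14.2% of all genes were called lower and 21.5% higher. Npm1, a nucleolar chaperone, differed between the sets by -0.98 ± 0.42 and the elongation factor Eef1a1 by 0.21 ± 0.50, and neither passed.

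Of 33 ribosome biogenesis genes, whose products assemble the subunits in the nucleolus, 9 were lower on the lung-like arrays and 0 higher, with a median of -0.61. The snoRNP core proteins Nop58 (-2.29 ± 0.26, adjusted p = 0.00199 by limma) and Nop56 (-2.09 ± 0.29) and the pseudouridine synthase Dkc1 (-1.72 ± 0.22) led this list. Nop58 read 11.38 and 11.31 on the marrow-like pair and 9.41, 9.04 and 8.85 on the lung-like arrays, with no overlap. Of 76 mitochondrial ribosomal protein genes, 10 were lower and 0 higher (median -0.52), with Mrpl49 at -1.70 ± 0.31 and Mrpl18 at -1.54 ± 0.29. Both counts are read beside the 14.2% of all genes called lower. Myc itself was lower (-1.52 ± 0.34, adjusted p = 0.0184, limma), as were its partner Max (-1.32 ± 0.23) and the antagonist Mxd1 (-1.05 ± 0.24), 3 of 5 genes in that list. Of 8 tested genes around S6 kinases and mTOR, the translation inhibitor Eif4ebp2 was lower (-1.16 ± 0.28, adjusted p = 0.0224, limma). Proliferation genes, 12 of 12 tested, were lower with a median of -4.09. The summed signal of the 13 measured of 14 was 80252 and 85726 on the marrow-like pair and 6870 to 11925 on the lung-like arrays, and the part of dividing cells in these lists was not tested. No gene in these lists was called for genotype.

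**Figure D5:**
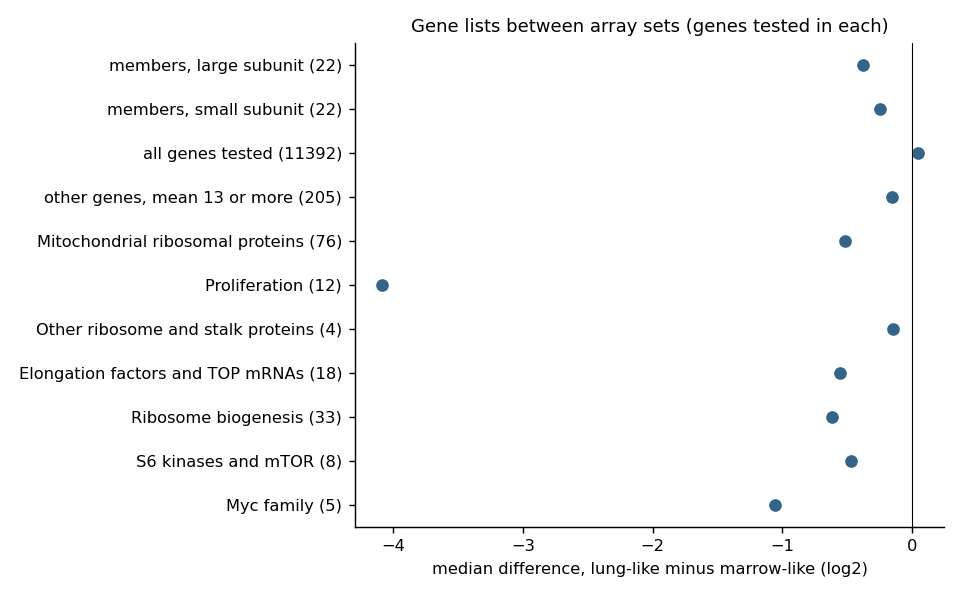
Median difference between array sets (lung-like minus marrow-like, log2) for the ribosomal protein genes by name (Rpl or Rps), for other lists and for all genes, with the number of genes tested in brackets. Rpl and Rps genes stand at -0.38 and -0.25, ribosome biogenesis at -0.61, Myc family at -1.05 and proliferation genes at -4.09.

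The array holds several probe sets for many of these genes. Of 103 probe sets of the 48 genes, 88 were kept, of which 76 had a lower and 12 a higher mean on the lung-like arrays. For 8 of 20 genes with several kept probe sets, these pointed both ways (Rpl22, Rpl37a, Rpl41, Rps14, Rps15, Rps18, Rps24 and Rps29). Rps10 had the widest range of set differences between its probe sets, 3.12 log2 units. Its brightest probe set read 14.32 and 15.02 against 14.67, 15.08 and 14.12, while another read 13.95 and 14.70 against 10.63, 12.14 and 10.83. By set means, probe sets other than the one used also differed more for Rpl13a (-2.33 and -1.37), Rpl41 (-1.45), Rpl22 (-1.35), Rpl27 (-1.32) and Rps24 (-1.04). Another of Rpl22 (0.42) and another of Rps24 (1.66) went the other way. For 15 of the 48 genes the probe set used can also hybridise other transcripts by its name suffix. Of the probe sets with several symbols 101 were kept, with a median set difference of -0.23 and genotype medians of -0.67 (marrow-like pair) and 0.69 (lung-like arrays), close to those of the genes named here. Since these are bulk samples, fewer cells of a type and less RNA per cell cannot be told apart.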

How the data were processed

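Per the submitters' processing notes and the values, the authors deposited linear MAS5 intensity values of 45101 probe sets for 5 arrays, each with a mean of 500 once 2% at either end was trimmed. The design text speaks of log2 values; those were not used here, and the MAS5 version is not given in the sources used here. Log2(signal + 16) was computed without further scaling. Symbols came from the platform annotation. After removal of 64 controls, 22519 probe sets whose mean reached the median of all were kept (19491 with 1 symbol, 11392 genes, each by its probe set of highest mean). Array sets were split at a median log2 of 10 over 24 poly-A controls.

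limma 3.58.1 in R 4.3.3 (eBayes with intensity trend, two-sided, Benjamini-Hochberg over all genes, threshold 0.05) fitted array set and genotype together, and a model of array set by genotype; residual degrees of freedom were 2 and 1. Fits were tested on simulated data. Alternatives were scalings, pseudocounts of 1 and 64, filters, eBayes settings, probe set rules, model terms and leaving out each array. Most genes were named by rule: the smallest p or largest change in each direction, and 25 fixed genes. Of the fixed genes, 6 have no probe set with 1 symbol and were not analysed here. Some others, such as Rps25, were named outside these rules. Members, lists and rules were chosen with earlier results of these data known. The number of arrays limits the precision. Figures were drawn in matplotlib 3.10.9.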

Additional observations from a re-analysis of the deposited data

Results flagged for a closer look

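The median genotype difference of the 44 ribosomal protein genes had opposite directions in the array sets. It was -0.67 log2 units for KA/KA minus WT in the marrow-like pair. On the lung-like arrays it was 0.55 (KA/KA 2) and 0.79 (KA/KA 3) relative to WT 2. Of 205 other genes with a mean of 13 or more, 76.1% also had these opposite signs. After quantile normalisation 7 of the 32 ribosomal protein genes at that level kept them, against 32 as deposited. The difference between sets was not tested for the median, and gene by gene the interaction passed for 0 of 44 genes (limma), with 33 of the 44 and 658 of all 11392 genes at an unadjusted p under 0.05.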

How the results depend on the processing

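Called lower between the sets, 4 genes in the text, were 8 with median centring, 2 with the upper-quarter filter, 2 with the 99th percentile shift (chosen after seeing the data) and 0 to 6 with 1 array left out. The 1 higher gene became 0 with quantile normalisation, median centring, pseudocount 64, no filter and the upper-quarter filter, 2 without shared probe sets, and 0 to 1 with 1 array left out; Rps24 then turned to 1.70 without shared probe sets. The upper-quarter filter tested fewer genes, among the ribosomal protein genes and over all genes. The called genes Rpl27a, Rpl14 and Rps4l fell below it and were not tested there. The median over the ribosomal protein genes ran from -1.02 to 0.30 with 1 array left out. For all genes, calls lower went from 1617 to 2782 with median centring and to 391 without WT 1, and calls higher from 2447 to 1204 with the upper-quarter filter and to 918 without WT 2. Inside the sets, quantile normalisation moved the genotype median to 0.023 on the lung-like arrays and -0.077 in the marrow-like pair. Genes lower in KA/KA in the pair and higher on both lung-like KA/KA arrays went from 37 to 14. The genotype median over both sets, 0.10, ran from -0.67 to 0.67 with 1 array left out and was -0.06 with the replicate number as a block. For genotype, all-gene calls (0) were 1 with the block and 3 with the 99th percentile shift. They were 5 without KA/KA 2 and 1 without KA/KA 3, and 0 of the 44 genes were called in each of these. Same-numbered arrays correlated at 0.877 and 0.653 in their deviations from the group means. KA/KA 3 and WT 2, with unlike numbers, correlated at 0.795. The same-numbered arrays share only a number and, like KA/KA 3 and WT 2, lie in the same array set. No alternative called any of the 44 genes for genotype. The cause of these shifts was not tested. Every kept probe set on its own (chosen after seeing the data) gave 11 lower and 2 higher of 88. The same count over all kept probe sets was not made, so no share stands beside it.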
